A study of Mus musculus with 24 samples.

Results

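The miRNA expression pattern of the late-numbered mouse miRNAs was measured in the lungs of wild type and SP-C/c-raf transgenic animals. The set was chosen by name only: it holds each mouse miRNA on the array whose number is 660 or higher, without the miR-669 family and without the minor strands that carry an asterisk. This gave 130 of the 611 mouse miRNAs on the array, and the other 481 served for comparison. In the transgenic animals the surfactant protein C promoter, which is active in type II cells of the alveolar epithelium, drives an active form of the kinase c-Raf. Lung RNA of 24 mice aged 4 to 6 months was hybridised, 1 animal per array, in 4 groups of 6 arrays: wild type males (M WT), wild type females (F WT), transgenic males (M c-Raf) and transgenic females (F c-Raf). Per the labels the cells were taken from frozen sections by microdissection, and the cell type collected is not named there. In such bulk RNA, fewer cells of a type and less RNA per cell cannot be told apart.

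MiRNAs are short RNAs that are cut from a hairpin precursor and loaded into an Argonaute protein. They pair with target mRNAs mainly through the seed, bases 2 to 8 of the mature strand, and lower their translation or stability. Numbers are given in the order in which sequences are registered, so that the abundant and widely conserved miRNAs mostly have low numbers. Many of the high numbers came from cloning and deep sequencing of single tissues, and some names were later assigned to fragments of other RNAs.

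The sequences below are those of the members that were detected most often and that have an entry in RefSeq (GRCm38.p6), which held 106 of the 130 members. The letters in capitals mark the seed. The array names miR-1224 and miR-702 give no arm, and both arms are therefore shown.
miR-1224-5p: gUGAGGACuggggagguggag
miR-1224-3p: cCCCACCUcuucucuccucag
miR-1895: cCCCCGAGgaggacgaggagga
miR-702-5p: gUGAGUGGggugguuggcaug
miR-702-3p: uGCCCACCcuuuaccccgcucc
miR-1187: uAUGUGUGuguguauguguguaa
miR-764-5p: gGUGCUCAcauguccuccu

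miR-1224 lies on the plus strand within Vwa5b2 (5p arm at chr16:20604452-20604472), and is known as a mirtron, a miRNA whose precursor is a spliced intron. miR-1895 lies within Cxxc4 (chr3:134240515-134240536), miR-702 within Plod3 (3p arm at chr5:136991520-136991541) and miR-764-5p within Htr2c, the gene of a serotonin receptor (chrX:147002285-147002303). miR-1187 (chr5:82798964-82798986) lies outside the gene spans of the table. G and C made up 72.7% of miR-1895, while miR-1187 with 34.8% is mostly a repeat of U and G. The 5p arm of miR-1224 had 61.9% G. The members miR-709, miR-720, miR-715, miR-1196 and miR-1897-5p are named only.

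Detection follows the flag that the extraction software sets for a miRNA on each array. Of the 130 late-numbered miRNAs, 105 (80.8%) were detected on no array, 25 (19.2%) on at least 1, 8 (6.15%) on at least 6 and 1, miR-1224, on all 24 arrays. Of the other 481 mouse miRNAs, 302 (62.8%) were detected on no array, 112 (23.3%) on at least 6 and 26 on all 24. On each of the 24 arrays the share detected was lower among the late-numbered miRNAs than among the others. It ranged from 2.31% to 13.1% in M c-Raf, where the others had 7.28% to 33.7%, and from 1.54% to 9.23% in F c-Raf, where the others had 10.8% to 26.4%.

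**Figure D1:**
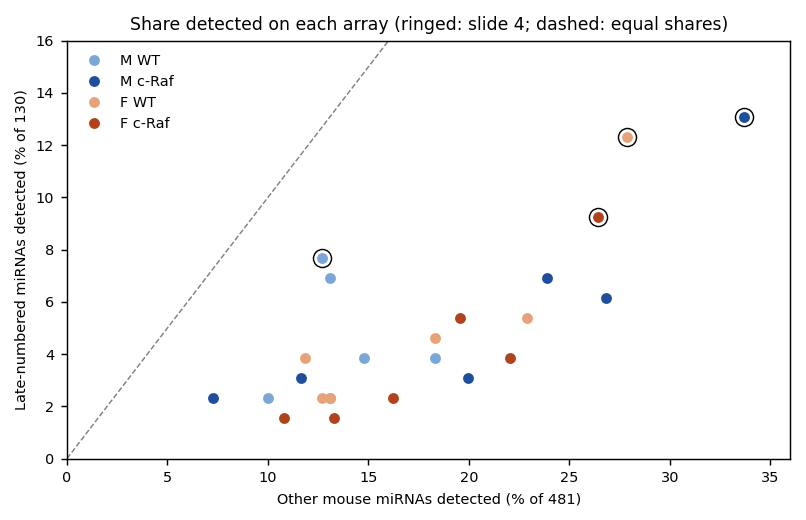
Share of the 130 late-numbered miRNAs detected (y axis, percent) against the share of the 481 other mouse miRNAs detected (x axis, percent), 1 point per array, coloured by group, with slide 4 ringed and equal shares as the dashed line. Each of the 24 points lies below the line, and the ringed array is the highest of its group.

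The arrays differed in brightness, which is the 75th percentile of the spots of the 27 miRNAs detected on all 24 arrays. It ran from 34.9 intensity units in M c-Raf replicate 6 to 1212 in M c-Raf replicate 4. The replicate number was the slide, and the 6 slides carried all 4 groups, with 1 array from each. By the scan dates in the file headers the slides fell into 4 scans. Scan 1 held slide 4 alone, scan 2 slides 5 and 6, scan 3 slide 1 alone and scan 4 slides 2 and 3. In all 4 groups the array of slide 4 had the most late-numbered miRNAs detected, with 17 in M c-Raf, 16 in F WT, 12 in F c-Raf and 10 in M WT. M WT replicate 4 was dim (52.8 units) and stood apart over the 120 tested miRNAs, with a correlation of 0.616 to the mean of the other M WT arrays, where the other 23 arrays had 0.859 to 0.983 with their own groups. F WT replicate 5 correlated more closely with the mean of F c-Raf (0.960) than with the rest of F WT (0.938), as did 6 other arrays with the other genotype of their sex.

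How many late-numbered miRNAs each group of lungs expressed was compared first. Per array, 3 to 17 were detected in M c-Raf (median 6), 3 to 10 in M WT (median 5), 2 to 12 in F c-Raf (median 4) and, in F WT, 3 to 16 (median 5.5). The ranges of the groups overlapped. Members detected on at least 4 arrays within a group numbered 5 for M c-Raf, 5 for M WT, 2 for F c-Raf and 4 for F WT, or 3.85%, 3.85%, 1.54% and 3.08% of the 130 beside 19.8%, 10.8%, 15.6% and 13.7% of the other miRNAs. Those detected on at least 1 array numbered 21 for M c-Raf, 11 for M WT, 13 for F c-Raf and 20 for F WT, or 16.2%, 8.46%, 10.0% and 15.4% beside 34.5%, 23.9%, 26.6% and 31.4% of the others. No test was made on these counts.

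**Figure D2:**
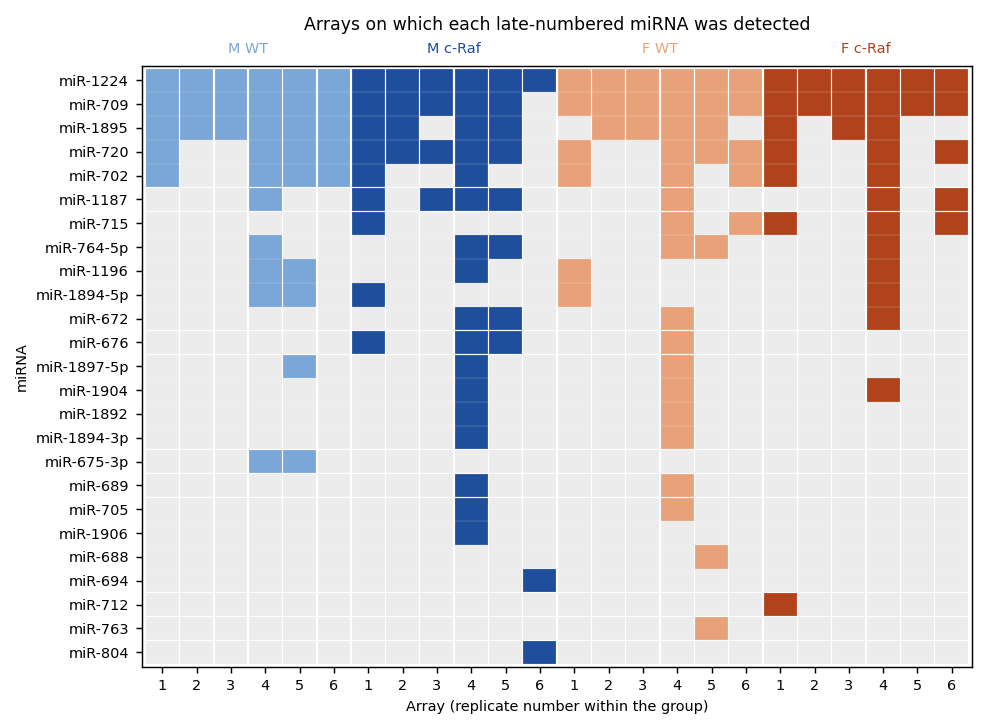
Arrays (x axis, replicate number within the group) on which each of the 25 detected late-numbered miRNAs (y axis) was detected; coloured cells are detections and grey cells are none. miR-1224 fills all 24 cells, while most detections of the lower rows lie on replicate 4.

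The 17 members found on 1 to 5 arrays had 40 detections in all, of which 25 lay on slide 4, and 6 of these members were found on that slide alone. M c-Raf replicate 4 carried 10 of the 17 and F WT replicate 4 carried 8. miR-1196 and miR-1894-5p were each found on 5 arrays, 2 of M WT (replicates 4 and 5 for both) and 1 of each other group. miR-672 and miR-676, both from the X chromosome, were each found on 4 arrays, none of them M WT. miR-676 was found on 3 M c-Raf arrays and 1 F WT array, and miR-672 on 2 of M c-Raf, 1 of F c-Raf and 1 of F WT. miR-1904 was found on replicate 4 of M c-Raf, F c-Raf and F WT, and miR-1897-5p on replicate 4 of M c-Raf and F WT and on M WT replicate 5. miR-675-3p, which is cut from the imprinted RNA H19, was found on 2 arrays, the same M WT replicates 4 and 5. miR-705, miR-689, miR-1892 and miR-1894-3p were found on 2 arrays each, in every case M c-Raf replicate 4 and F WT replicate 4. Found on 1 array each were miR-1906 (M c-Raf replicate 4), miR-694 and miR-804 (M c-Raf replicate 6), miR-712 (F c-Raf replicate 1), and miR-688 and miR-763 (F WT replicate 5). In 19 of the 40 detections the scaled median spot was at the floor, the lowest value allowed (0.01 of the brightness). In unscaled signal this floor was 0.349 units on the dimmest array and 12.1 on the brightest, M c-Raf replicate 4. There miR-1906, with a median spot of 8.26 units, counts as at the floor, so that the 19 are not all without signal. Without slide 4, 19 members were detected on at least 1 array.

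The highest unscaled signal of a member fell on few arrays. Of the 25 detected members, 10 had it on M c-Raf replicate 4, the brightest array. Another 9 had it on M WT replicate 5, whose brightness of 204 units was near the median of 215. miR-1224 had 1845 units there, and its highest signal on any other array was 262 units.

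Related members were counted in lists, to be read beside the 19.2% of all 130 members detected on at least 1 array; differences between the lists were not tested. Of 14 listed members of the imprinted Dlk1-Dio3 cluster of chromosome 12, whose miRNAs are expressed from the maternal chromosome mainly in embryo and brain, 0 were detected. The list leaves out miR-1906, which RefSeq places within Meg3 of this locus and also on the X chromosome and which was detected on 1 array, and miR-882, which lies in the same stretch and was detected on 0. The highest signal of any listed member on any array was 12.1 units, for miR-668. The count does not cover the lower-numbered miRNAs of this cluster, which are outside the set and were not counted. Of these, miR-127 was among the 120 miRNAs detected on at least 6 arrays, and miR-337-5p was detected on 5. Of the X-linked cluster near Fmr1, which is known from testis, 0 of 14 were detected, and the highest signal was 4.40 units. Of the 10 members with broadly expressed, conserved precursors, 2 were detected, miR-672 and miR-676. Of the 2 listed mirtrons, miR-1224 was detected and miR-877 was not. These counts are of the strands in the set and not of the precursors. The minor strands miR-674* and miR-877*, left out by the choice of names, were among the 120 miRNAs detected on at least 6 arrays. Of 3 names that overlap another non-coding RNA, 2 were detected, miR-720, a name since assigned to a fragment of transfer RNA, and miR-712, which lies in a spacer of ribosomal RNA. miR-675-3p was the 1 of 2 members of H19. Over all 105 members that were detected on no array, the median signal per member ran from -2.95 to 0.923 units. An undetected member was below what these arrays resolve, and its absence from the tissue is not shown.

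Among names with 1 RefSeq sequence, the detected members had a higher median share of G and C than the undetected ones. This median was 61.4% in 14 detected members and 53.5% in 60 undetected ones. In the other mouse miRNAs it was 50% in 56 detected and 43.5% in 77 undetected. Of the 14, only miR-1895, miR-1187 and miR-764-5p were detected on at least 6 arrays, and the rest on 1 to 5. The ranges overlapped widely, and the detected members ran from 34.8% (miR-1187) to 75% (miR-705). miR-705 (70.0% G) and miR-1892 (54.5% G), which were found on the same 2 arrays, are shown as examples.
miR-705: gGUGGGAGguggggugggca
miR-1892: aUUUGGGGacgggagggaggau

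**Figure D3:**
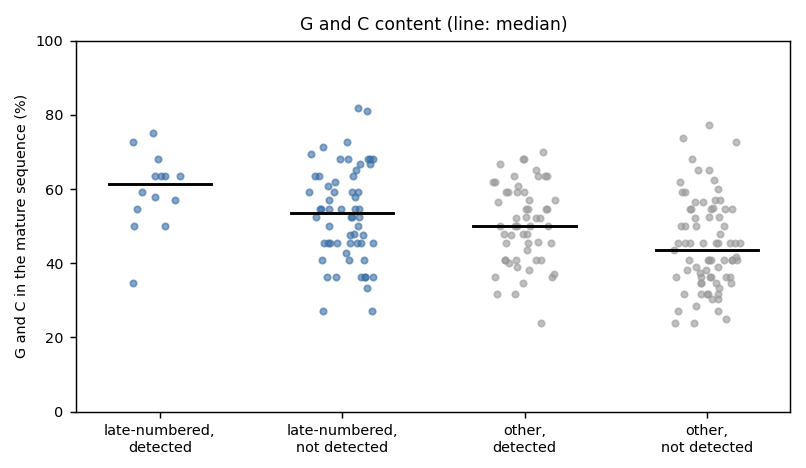
G and C content of the mature sequence (y axis, percent) for late-numbered and other mouse miRNAs, detected on at least 1 array or on none, 1 point per miRNA and the median as a line. The medians are 61.4%, 53.5%, 50% and 43.5% from left to right, and the 4 ranges overlap.

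Some undetected members share a seed with miRNAs of other names. miR-761 has the seed CAGCAGG of miR-214-3p, and the array detected miR-214 on 24 arrays and miR-761 on 0. miR-743a-3p and miR-743b-3p share AAAGACA, and miR-883a-3p and miR-883b-3p share AACUGCA; none of these was detected.

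The 8 members detected on at least 6 arrays were compared between the groups. The values below are log2 of the signal divided by the brightness of the array, so that 0 is the brightness and -6.64 the floor. All 120 mouse miRNAs detected on at least 6 arrays entered the fit (limma, two-sided), with p adjusted by Benjamini-Hochberg over the 120.

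miR-1895 was the only late-numbered miRNA called in any of the 6 comparisons as fitted. Its level was -4.87, -4.04, -4.35, -3.02, -3.56 and -4.60 in M WT replicates 1 to 6, and -5.23, -4.48, -5.96, -5.48, -5.21 and -4.29 in M c-Raf. In F WT it was -5.56, -4.08, -3.99, -5.18, -4.85 and -4.76, and in F c-Raf -6.01, -5.45, -4.81, -5.49, -6.01 and -5.42. Levels were lower in c-Raf in both sexes, and the groups overlapped. It was detected on 6 arrays of M WT, 4 of M c-Raf, 4 of F WT and 3 of F c-Raf. Over both sexes it fell by 0.91 (SE 0.24, limma adjusted p = 0.0144), and the c-Raf array was lower on 6 of 6 slides in the mean of both sexes. Of the 120 miRNAs, 18.3% were called in this comparison, 12.5% higher and 5.83% lower. Of these 22 calls 4 lay at a limma adjusted p of 0.0467 to 0.0482, and over the alternatives the number ran from 0 to 32. The difference was -1.38, -0.79, -0.40 and -1.06 within scans 1 to 4, of which scans 1 and 3 are 1 slide each. In males alone it was -1.03 (SE 0.34, limma adjusted p = 0.108) and in females -0.79 (SE 0.34, limma adjusted p = 0.246). The call was lost without scaling between arrays (-0.36), with a percentile taken over the non-control spots (-0.51), with normexp background correction (-0.19), with a floor of 0.1 (-0.03) and with no filter (-0.91, limma adjusted p = 0.0899). At least 10 of its 20 spots were well above background on 6 arrays only.

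miR-720 was at -4.51, -5.05, -6.64, -3.69, -4.35 and -4.32 in M WT and at -5.15, -5.23, -4.83, -4.61, -4.42 and -4.44 in M c-Raf. In F WT it was at -3.05, -5.39, -5.26, -4.96, -4.96 and -4.35, and in F c-Raf at -6.47, -6.64, -6.03, -4.98, -6.44 and -5.34. The F c-Raf arrays were low, 4 of them below each F WT array. The female difference was -1.32 (SE 0.43, limma adjusted p = 0.0766), lower on 6 of 6 slides, and -0.02, -1.24, -3.43 and -1.01 within scans 1 to 4. With the slide as a replicate block the adjusted p was 0.0408, and with the scan as a block 0.0333. Under normexp the difference was 0.55. The male difference was -0.02 (SE 0.43, limma adjusted p = 1), and the difference of the effect between the sexes was 1.30 (SE 0.61, limma adjusted p = 0.872). Between c-Raf males and females it was 1.20 (SE 0.43, limma adjusted p = 0.206), higher in males on 6 of 6 slides.

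miR-709, a name without an entry in the sequence table, was detected on 23 arrays. It was at -3.58, -1.92, -1.55, -2.38, -1.65 and -3.34 in M WT and at -4.58, -2.33, -3.14, -2.96, -4.20 and -3.81 in M c-Raf. In F WT it was at -4.23, -2.01, -1.30, -3.16, -3.82 and -3.65, and in F c-Raf at -3.82, -3.03, -1.89, -3.31, -4.32 and -4.55. The groups overlapped, and the highest level of each group lay on slide 2 or 3. The male difference was -1.10 (SE 0.54, limma adjusted p = 0.203), lower on 6 of 6 slides, and the female difference was -0.46 (SE 0.54, limma adjusted p = 0.762; -0.77 to -0.11 with 1 array left out). Over both sexes it was -0.78 (SE 0.38, limma adjusted p = 0.161), and -0.36, -1.10, -0.30 and -0.90 within scans 1 to 4. With the slide as a replicate block the adjusted p over both sexes was 0.0153, and with the scan as a block it was 0.0154 over both sexes and 0.0446 in males. Without scaling the male difference was 0.08.

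miR-1224 was at -1.05, -0.92, -1.30, 0.15, 3.18 and -0.34 in M WT and at -1.31, -0.66, -1.67, -2.57, -1.86 and -0.08 in M c-Raf. In F WT it was at -1.65, -0.91, 0.00, -1.95, -2.08 and -0.65, and in F c-Raf at -1.87, -1.18, -1.73, -2.07, -1.89 and -1.76. M WT replicate 5 was far above the other 23 arrays. The male difference was -1.31 (SE 0.58, limma adjusted p = 0.186) with that array and -0.67 without it. The female difference was -0.55 (SE 0.58, limma adjusted p = 0.736), and over both sexes it was -0.93 (SE 0.41, limma adjusted p = 0.119).

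The other 4 members lay at or near the floor on many arrays. miR-702 had medians of -4.99 in M WT, -6.51 in M c-Raf, -6.54 in F WT and -5.61 in F c-Raf, and was detected on 4, 2, 3 and 2 arrays of these groups. miR-1187 had medians of -5.59, -5.34, -5.22 and -4.93 in the same order and was detected on 1, 4, 1 and 2 arrays; M WT replicate 4, at -0.93, was the highest. miR-764-5p was at the floor on 17 of 24 arrays, and miR-715 on 14. miR-715 was detected on 0 of 6 M WT arrays and on 1, 2 and 3 arrays of M c-Raf, F WT and F c-Raf, and no fold against M WT is given since its levels lay below the lowest spot well above background there. In males the differences were -1.10 for miR-702 (SE 0.76), -0.38 for miR-1187 (SE 0.72) and -0.58 for miR-764-5p (SE 0.55), with limma adjusted p of 0.333 to 0.736. With 1 array left out they ran from -1.63 to -0.62, from -0.74 to 0.40 and from -0.98 to -0.01. In females they were 0.03, 0.28 and -0.12, and -0.01 for miR-715, with limma adjusted p of 0.905 to 1. Values at the floor have no order, and none of the 4 was called in any comparison or setting.

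**Figure D4:**
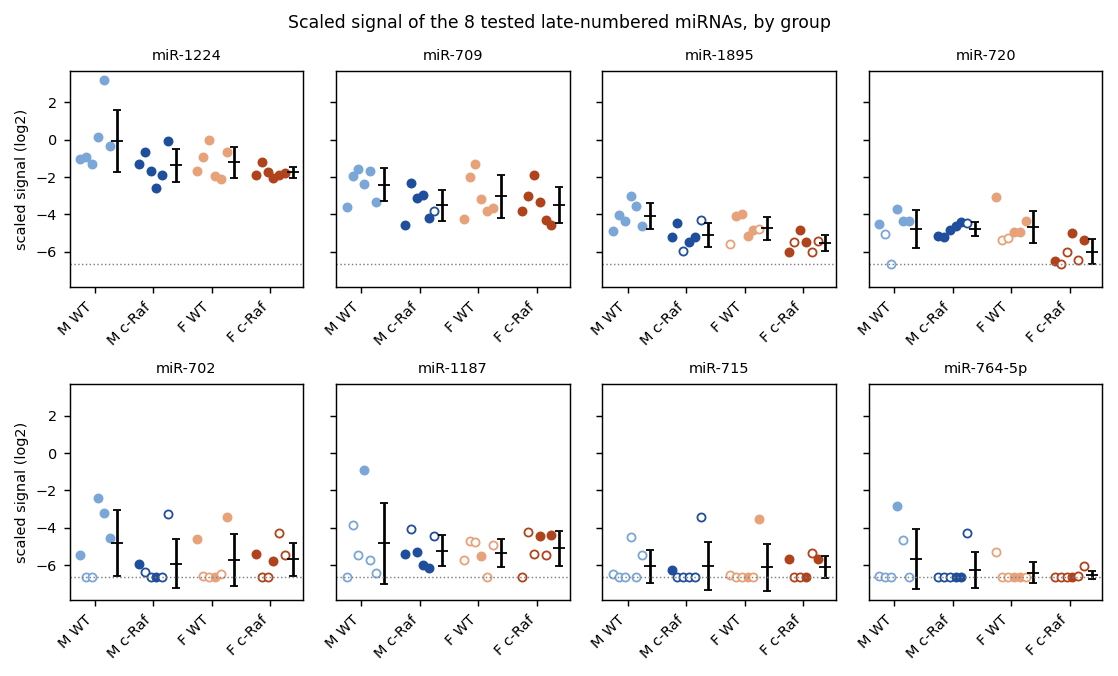
Scaled signal (y axis, log2, 0 being the brightness of the array) of the 8 tested late-numbered miRNAs in the 4 groups (x axis), 1 point per array in replicate order, filled where detected and open where not, with the mean and SD of 6 arrays in black and the floor of -6.64 dotted. The means of miR-1895 lie lower in M c-Raf and F c-Raf than in the WT groups, with overlap, and M WT replicate 5 stands far above the rest for miR-1224.

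Counted over the 8, in c-Raf against WT limma called 0 late-numbered miRNAs in males, where 2.50% of the 120 were called (0.833% higher and 1.67% lower), and 0 in females, where 5.00% were (3.33% higher and 1.67% lower). At an unadjusted p under 0.05 there were 2 of 8 in each sex, beside 20.8% of the 120 in males and 14.2% in females. The t-test of the methods, on linear values, gave a p for 110 of the 130 in males and 104 in females, the others being constant. It passed 0 of them in either sex at the study's thresholds and 0 after Benjamini-Hochberg, where 10 of the 563 mouse miRNAs with a p passed the thresholds in males and 3 of 547 in females. In males 7 of the 8 fitted differences were below 0, beside 51 of the 120 (miR-715, which has no fold there, is counted above 0). The median of the 8 was -0.81 beside 0.13 over all 120 miRNAs. On slide 4, which holds M WT replicate 4, miR-1187, miR-702 and miR-764-5p were at -5.05, -4.24 and -3.83. Each of these was lower in c-Raf on 3 of 6 slides. miR-709 was lower on 6, miR-1895 and miR-720 on 5 each and miR-1224 on 4. Without slide 4 the male differences of miR-720, miR-1187 and miR-764-5p were above 0. In females 6 of 8 were below 0, beside 56 of the 120, with a median of -0.29 beside 0.03. Over both sexes 7 of 8 were below 0, beside 54 of the 120 (median -0.60 beside 0.09). The counts include differences near 0, such as -0.02 for miR-720 in males, and the 4 members at or near the floor. A difference between the sexes in the effect of c-Raf was called for 0 of the 8 by limma (1 at an unadjusted p under 0.05, miR-720, beside 4.17% of the 120), as for 0% of the 120. Males against females gave 0 calls in WT (0 at an unadjusted p under 0.05 beside 9.17%; 0% of the 120 called) and 0 in c-Raf (1, again miR-720, beside 8.33%; 2.50% called). The WT differences were higher in males for 7 of 8, beside 48 of the 120 (median 0.65 beside -0.12). On slide 4, which holds M WT replicate 4, those of miR-1187, miR-702 and miR-764-5p were 4.58, 4.24 and 3.83. By slide, miR-702, miR-715 and miR-764-5p were higher in males on 2 of 6 each and miR-1187 on 3. miR-1224 was higher on 4, and miR-1895 and miR-709 on 5 each.

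The signal of a member was also set against the brightness of its array, which differed 34.7-fold between the arrays. Over the 24 arrays the log2 of the unscaled signal rose with log2 brightness for the 4 members detected on at least 12 arrays. Pearson r was 0.777 for miR-1895 and 0.768 for miR-709 (permutation p = 1e-05 each, the smallest that the resamples can give; adjusted p = 4e-05 over 8 relations). It was 0.522 for miR-1224 (permutation p = 0.00945, adjusted p = 0.00945) and 0.522 for miR-720 (permutation p = 0.00885, adjusted p = 0.00945). Spearman rho was 0.736, 0.674, 0.744 and 0.782 in this order, with permutation p of 7e-05, 0.00039, 6e-05 and 4e-05 and adjusted p of 0.000112, 0.00052, 0.000112 and 0.000107. With the 2 arrays of most extreme brightness left out, r was 0.683, 0.647, 0.439 and 0.437. Within scan 2 (8 arrays) r was 0.880, 0.851, 0.519 and 0.895, and within scan 4 it was 0.147, 0.498, 0.469 and 0.369. Scans 1 and 3 held too few arrays. The signal of miR-720 was below 0 on F c-Raf replicate 2 (-3.37 units) and M WT replicate 3 (-0.59), both of scan 4. Such values have no log2, and the r of miR-720 depends on the value put in their place. As a description, the median r was 0.489 over the 8 tested members and 0.841 over the other 112 tested miRNAs. The brightness is itself taken from the spots of 27 miRNAs, which are miR-1224 and 26 of these 112. Their r is therefore in part a relation with themselves, and the medians do not show a trait of the late-numbered miRNAs.

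**Figure D5:**
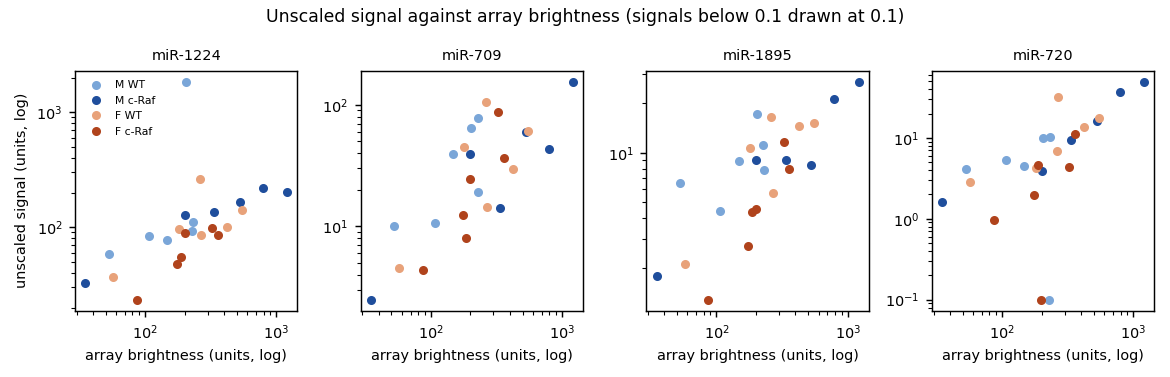
Unscaled signal (y axis, intensity units, log axis) against the brightness of the array (x axis, intensity units, log axis) for the 4 late-numbered miRNAs detected most often, 1 point per array, coloured by group, with signals below 0.1 drawn at 0.1. Signals rise with brightness with wide scatter, and M WT replicate 5 lies apart for miR-1224 at 1845 units.

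Median brightness was 433 units in M c-Raf, 176 in M WT, 265 in F WT and 193 in F c-Raf, and its part in the differences above was not tested. Markers of lung cell types were detected unevenly. Of the epithelial miRNAs, miR-200b and miR-200c were detected on 24 arrays, miR-429 on 13, miR-200a on 11 and miR-141 on 1. The endothelial miR-126-3p was detected on 23, while miR-126-5p was found on 0 and the smooth muscle miR-143 and miR-145 on 3 each. miR-451 and miR-486 of erythroid cells were found on 15 and 22 arrays and miR-144 on 0. Of the leukocyte miRNAs, miR-223 was found on 12 arrays, miR-150 and miR-155 on 7 each, and miR-142-3p and miR-142-5p on 0.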

How the data were processed

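Agilent mouse miRNA arrays with 1 colour, Cy3, were used for lung RNA. The deposited scanner files (Feature Extraction 10.7.3.1, build mm9, per the file headers) hold the intensity of each spot after background subtraction and detrending by the authors, with no scaling between arrays. The deposited table of processed intensity values held complete values for 0 of the 8 tested members and gave no comparison here. Each miRNA had 20 spots of 2 to 4 probes, and 0 spots were saturated. Intensities were divided by the 75th percentile over the spots of the 27 miRNAs detected on all arrays, values below 0.01 were set to 0.01, and the median over spots was taken, then log2. miRNAs detected on at least 6 arrays (120) were tested with limma 3.58.1 in R 4.3.3, with 1 mean per group and 20 residual degrees of freedom; the fit was tested on simulated data. Every member with at least 6 detections is named with values, every member with 1 to 5 with the number or names of its arrays, and the rest by lists. The members and the lists were chosen with earlier results of these data known. Other scalings, floors, filters, blocks and omitted arrays were tried as alternatives, 4 of them chosen after the data were seen. Labels say 1 animal per array. Each group sat at 1 position of the slides, so that position and group cannot be told apart. No spot mean is used here, so normexp (offset 50) took the spot median and the background median. The number of arrays limits the precision. The replicate number is the slide per the file headers; arrays of 1 slide had correlated deviations on slides 2 and 3 (mean r 0.537 and 0.548) and less on the others (0.0796 to 0.233). Sequences are from RefSeq, GRCm38.p6.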

Additional observations from a re-analysis of the deposited data

Results flagged for a closer look

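The highest and the lowest of the 6 arrays of each group were examined by Dixon's test, which sets the distance to the next array against the whole range. Of 36 groups examined 8 were singled out, where chance gives about 5%, or 1.8; the 5% does not hold where other arrays lie at the floor. miR-1224 in M WT replicate 5 was at 3.18, the others between -1.30 and 0.15. miR-702 in M c-Raf replicate 6 was at -3.28, with 3 of the others at the floor. miR-715 was at -3.44 in M c-Raf replicate 6 and at -3.53 in F WT replicate 6, with 4 others at the floor each. miR-764-5p was at -4.27 in M c-Raf replicate 6 and at -5.28 in F WT replicate 1, with all 5 others at the floor, and at -6.06 in F c-Raf replicate 6, with 4 there. M c-Raf replicate 6 and F WT replicate 6 had brightness of 34.9 and 57.2 units. F WT replicate 4 had 16 late-numbered miRNAs detected, the other F WT arrays 3 to 7.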

How the results depend on the processing

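The differences of the 8 tested members in each sex and over both kept their direction and side of the threshold in 845 of 972 alternatives, and 106 changed sign, none of them with a call. The cause of these changes was not tested. Of the 40 or 41 alternatives per difference, 24 left out only 1 array. A block for slide or scan cannot change a difference here, as each slide held all 4 groups. Only the difference of miR-1895 over both sexes was called as fitted, so the share kept is mostly of differences without a call.

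Over both sexes 1 member was called, and 0 with a percentile taken over the non-control spots, without scaling, with a floor of 0.1, with normexp or with no filter. The floor of 0.1 could not keep the call, since miR-1895 exceeded it on M WT replicate 4 alone. With the slide as a replicate block 0 were called in males, 1 in females (miR-720) and 2 over both sexes (miR-1895 and miR-709), and 0 in the other 3 comparisons; with the scan as a block 1, 1 and 2. With 1 array left out, 0 to 1 were called in males, 0 to 1 in females and 1 to 2 over both sexes: miR-1895 in males without M c-Raf replicate 6, miR-720 in females without F c-Raf replicate 4 or M WT replicate 3, and miR-720 over both sexes without M WT replicate 3. No tested member had complete values in the deposited table, which gives no value here.

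Differences that changed sign were as follows; those of miR-715 in males and over both sexes rest on M WT levels not well above background and are no folds. With that percentile (medians of all miRNAs 1.01 in males, 0.19 in females and 0.61 over both) miR-720, miR-702, miR-1187 and miR-764-5p were at 1.6, 0.10, 0.43 and 0.31 in males, miR-702 and miR-764-5p at -0.55 and 0.61 in females, and miR-1187, miR-715 and miR-764-5p at 0.33, -0.17 and 0.46 over both. Without scaling (medians 1.19, -0.21 and 0.50) miR-709, miR-1895, miR-720 and miR-1187 were at 0.078, 0.19, 1.20 and 0.75 in males, miR-702 at -0.22 in females and miR-1187 at 0.43 over both. With normexp (medians -0.80, 0.62 and -0.08) miR-715 was at -0.98 in males and -0.14 over both, and in females miR-1224, miR-709, miR-1895, miR-720, miR-715 and miR-764-5p were at 0.16, 0.49, 0.58, 0.55, 0.70 and 0.72. With quantile normalization miR-720, miR-1187 and miR-715 were at 0.21, 0.027 and -0.18 in males, miR-702 at -0.11 in females, and miR-1187 and miR-715 at 0.14 and -0.11 over both. With outlier spots left out miR-720 was at 0.030 in males and miR-715 at -0.0017 over both. With a floor of 0.001 miR-720 and miR-715 were at 0.45 and -0.74 in males, miR-702, miR-715 and miR-764-5p at -0.49, 0.058 and 0.26 in females, and miR-715 at -0.34 over both. With array weights miR-720, miR-1187 and miR-715 were at 0.15, 0.33 and -0.12 in males, miR-715 at 0.24 in females and miR-1187 at 0.25 over both. With the mean over spots miR-715 was at -0.29 in males and -0.16 over both, and miR-764-5p at 0.037 in females. With the total signal of the software miR-702 was at -0.52 in females, and miR-1187 and miR-715 at 0.093 and -0.21 over both. A further 7 differences, 5 of them female with a floor of 0.1, were exactly 0, as all values lay at the floor.

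Chosen after the data were seen were normexp on the spot median and 3 sets of arrays left out. Without slide 4 miR-720, miR-1187 and miR-764-5p were at 0.16, 0.55 and 0.065 in males, miR-702 at -0.13 in females and miR-1187 at 0.34 over both. Without the 3 dimmest arrays miR-720, miR-1187 and miR-715 were at 0.13, 0.24 and -0.19 in males, miR-715 at 0.51 in females and miR-1187 at 0.31 over both. Without M WT replicate 4 and F WT replicate 5 miR-720 and miR-1187 were at 0.20 and 0.40 in males, miR-702 at -0.12 in females and miR-1187 at 0.21 over both. The call of miR-1895 over both sexes was kept in these 3.

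With 1 array left out, the differences of miR-720, miR-1187 and miR-715 in males ran from -0.40 to 0.20, -0.74 to 0.40 and -0.51 to 0.33, those of miR-702, miR-715 and miR-764-5p in females from -0.25 to 0.49, -0.16 to 0.51 and -0.22 to 0.11, and those of miR-1187 and miR-715 over both from -0.23 to 0.34 and -0.26 to 0.26. The difference of miR-1895 over both sexes stayed between -0.996 and -0.808.

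With detection set at 10 spots well above background, 12 members were detected on at least 1 array and 4 on at least 6. On at least 4 of 6 arrays there were then 3, 2 and 2 in M c-Raf, M WT and F WT, and the number of F c-Raf did not change. With the flag of the software but at least 1 array of a group in place of 4, there were 21, 11, 13 and 20 in M c-Raf, M WT, F c-Raf and F WT. With all 6 arrays there were 1, 3, 2 and 2 in the same order. Leaving out 1 array left 23 to 25 members detected.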
